A study of Mus musculus with 2 samples.

Results

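The ribosome biogenesis factors are the 77 genes, of 34745 listed, that the authors' annotation assigns to the KEGG pathway of ribosome biogenesis in eukaryotes, and they were chosen by that assignment alone. By role, 9 are core proteins of small nucleolar ribonucleoproteins (snoRNPs), 28 belong to the small subunit processome and to late small subunit (pre-40S) maturation, 16 are nucleases or nuclease subunits, 12 act in large subunit (pre-60S) maturation and 10 in nuclear export. *Tcof1*, which encodes Treacle, stands alone as a factor of rRNA transcription, and a row named *Chd1* fits none of these roles. RNA-seq was done on the liver of male mice, 8 to 10 weeks old, at day 3 after 2/3 partial hepatectomy (PH), which removes 70% of the liver and starts liver regeneration (LR). The miR-182-5p KO mice are heterozygous, with 1 allele knocked out, and they were compared to WT control mice that underwent the same operation. Each genotype was represented by 1 library, and the number of mice behind a library is not given in the sources used here, so no value below has a replicate check. The study asked whether miR-182-5p is needed for liver cells to proliferate after PH.

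A cell that prepares to divide has to make ribosomes for its daughters, and after PH hepatocytes enlarge their nucleoli and raise rRNA synthesis before they enter S phase. RNA polymerase I makes a long precursor rRNA. SnoRNPs modify that precursor at sites chosen by their guide RNAs, the processome folds and cuts the part that becomes the small subunit, further nucleases trim the ends, GTPases and AAA ATPases remodel the large subunit, and both subunits leave the nucleus by the Ran and exportin system. Many of these genes are direct targets of MYC, which binds the E-box motif.

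Read counts added up to 13247497 (KO) and 13163348 (WT). Of these, 51.7% (KO) and 31.0% (WT) fell on the 13 mitochondrially encoded protein genes, so the libraries were scaled by TMM, which sets the bulk of the genes level. The part of this difference in the results below was not tested. The gene of the microRNA itself was not analysed here, so its level gave no check of the genotype labels. Dividing by total counts in place of TMM lowers every log2 fold change by about the same amount, and the median of all genes tested then lies at −0.60. Each fold change below is KO over WT after TMM, and is a change relative to the bulk of the genes. A gene was tested if its KO and WT counts added up to 10 or more, which left 13561 genes. The exact binomial test was used, two-sided, with Benjamini-Hochberg adjustment over all of them. It sets 1 library against the other rather than 1 genotype against the other. The 95% intervals given with the log2 fold changes cover counting error only.

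Of the 77 factors, 70 were tested. *Rpp25*, *Fbll1*, *1700009N14Rik*, *Nxf2*, *Nxf3* and *Nxf7* had 0 counts in both libraries, and *Rasl2-9* had 5 KO and 4 WT counts. The tested factors had 22 to 1409 KO counts and 23 to 1650 WT counts. The pathway lay with the bulk of the genes. Its median log2 fold change was −0.00, against 0.00 for all genes tested, with 35 factors below 0 and 35 above. The middle of their range, from the lower to the upper quartile, reached from −0.38 to 0.27, and that of all genes from −0.44 to 0.43.

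At a change of at least 2-fold and an adjusted p-value under 0.05, 5 of the 70 factors were lower in the KO library, 7.14% of them against 8.32% of all genes tested, and 1 was higher, 1.43% against 7.97%. At a change of at least 1.5-fold with the same adjusted p, 11 were lower, 15.7% against 15.0% of all genes, and 6 were higher, 8.57% against 14.6%. The 5 factors lower by 2-fold were *Nxt1*, *Nhp2l1*, *Utp6*, *Nop56* and *Lsg1*, and the factor higher by 2-fold was *Utp15*. The shares of lower factors stood near their backgrounds, and the shares of higher factors stood below theirs. These counts also depended on the noise allowed for. When a biological coefficient of variation of 0.2 between animals was assumed, which single libraries cannot measure, 1 factor was lower by 2-fold and none was higher. Of all genes tested, 444 were then lower and 488 higher. With 0.4 no factor passed in either direction, beside 58 lower and 59 higher of all genes.

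**Figure D1:**
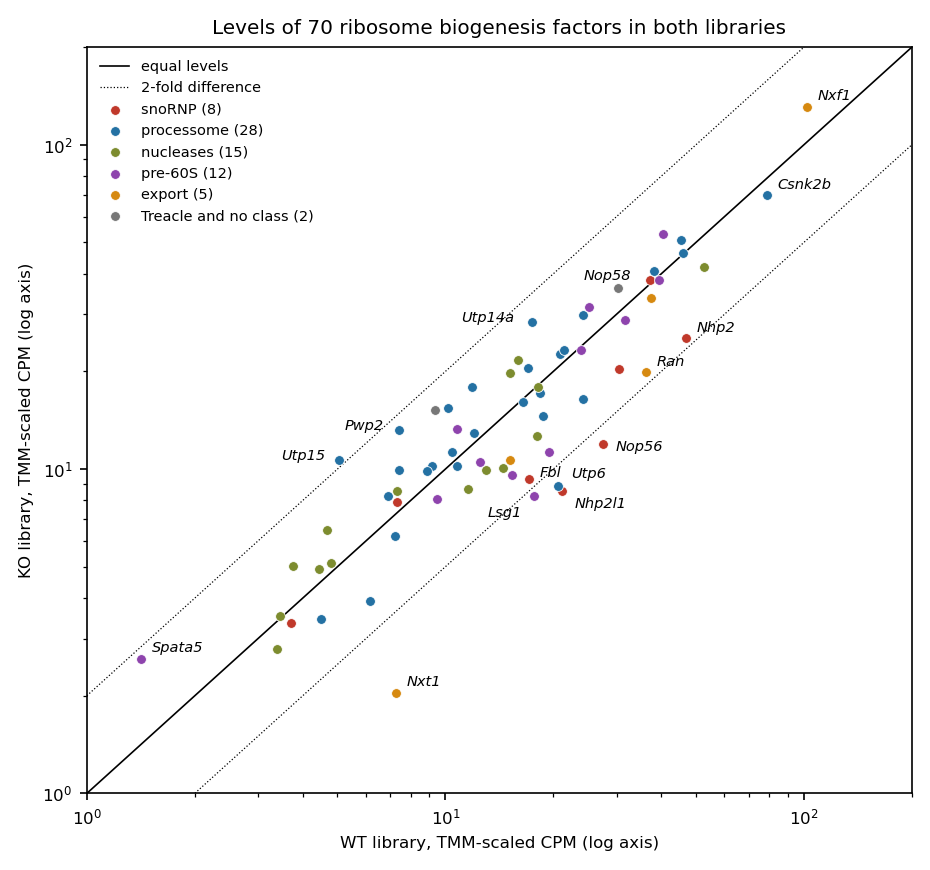
Level of each of the 70 tested factors in the WT library (x axis) and the KO library (y axis), in TMM-scaled CPM on log axes, with 1 point per gene coloured by role. The solid line marks equal levels and the dotted lines a 2-fold difference. *Nxt1*, *Nop56*, *Utp6*, *Nhp2l1* and *Lsg1* lie under the lower dotted line and *Utp15* lies above the upper one, after TMM scaling.

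The box C/D snoRNP carries a guide RNA and 4 core proteins, and adds methyl groups to the ribose of rRNA. Its mRNAs were the lowest group of the pathway, where 4 genes were tested and the median log2 fold change was −1.04. *Nop56*, which encodes one of its scaffold proteins (chr2:130274430-130279313 in the authors' table, plus strand), had 128 KO and 445 WT counts, or 11.9 and 27.4 CPM, which are counts relative to the TMM-scaled library total. Its log2 fold change was −1.20 (95% interval −1.50 to −0.92), with an adjusted p of 9.0e-18 by the exact binomial test. *Nhp2l1*, whose protein binds the bend of the guide RNA and also belongs to the spliceosome (chr15:82041319-82047598, minus strand), had 92 and 343 counts and changed by −1.30 on the log2 scale (−1.65 to −0.97, exact binomial test with an adjusted p of 1.5e-15). *Fbl*, which encodes the methyltransferase fibrillarin, had 100 and 278 counts and changed by −0.88 (−1.23 to −0.55). All of these intervals lie below 0.

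*Nop58*, which encodes the partner of Nop56 in the scaffold, did not move with them. It had 411 KO and 603 WT counts, or 38.2 and 37.2 CPM, and a log2 fold change of 0.04 (−0.15 to 0.22). The upper end of the interval of *Nop56* lies below the lower end of that of *Nop58*, so that the ratio of these scaffold mRNAs differed between the libraries by more than counting error. Between genes, levels can be compared only per length, here as CPM per kb of the longest protein-coding transcript. On that scale *Nop56* stood at 14.6 (WT) and 6.34 (KO), *Fbl* at 14.3 and 7.77, *Nhp2l1* at 10.2 and 4.12, and *Nop58* at 3.91 and 4.02. The order between these genes depends on the length used, since the longest transcript of *Nop58* has a 3′ UTR of 7723 bases and the deposited FPKM put *Nop58* (2.12 KO, 3.13 WT) above *Nop56* (0.633 KO, 2.21 WT). *Fbll1*, a copy of *Fbl*, had 0 counts.

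Box H/ACA snoRNPs turn uridine into pseudouridine, and their core proteins also hold the RNA of telomerase. *Nhp2* had 272 KO and 760 WT counts (25.3 and 46.9 CPM), a log2 fold change of −0.89 (−1.10 to −0.69, with an adjusted p of 1.5e-18 in the exact binomial test). *Nop10*, its small partner, had 218 and 493 counts and a log2 fold change of −0.58 (−0.82 to −0.35), just short of 1.5-fold. *Gar1*, with 36 and 60 counts, gave −0.14 with an interval from −0.78 to 0.48 that is too wide to place it. *Dkc1*, which encodes the catalytic subunit dyskerin, had 85 and 119 counts and gave 0.11 (−0.31 to 0.52). Both kinds of snoRNP thus held genes that were lower and a gene near 0, *Nop58* in one and *Dkc1* in the other.

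Over both kinds, 6 of 8 tested snoRNP genes were below 0, the median was −0.73, and 4 were lower by 1.5-fold and none was higher, beside 15.0% and 14.6% of all genes. Summed over the 8 genes, their level was 125 CPM (KO) and 191 CPM (WT). Under total-count scaling, which lowers every value by about the same amount, the median was −1.33, beside −0.60 for all genes. Parts of the transcripts of *Nop56* (19.7% of its 51-base words) and *Nhp2l1* (16.5%) also occur in other genes, so their counts are less certain than those of *Fbl*, *Nhp2* and *Nop10*, which share at most 2.64%. In bulk liver, fewer cells of a type and less RNA per cell cannot be told apart.

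**Figure D2:**
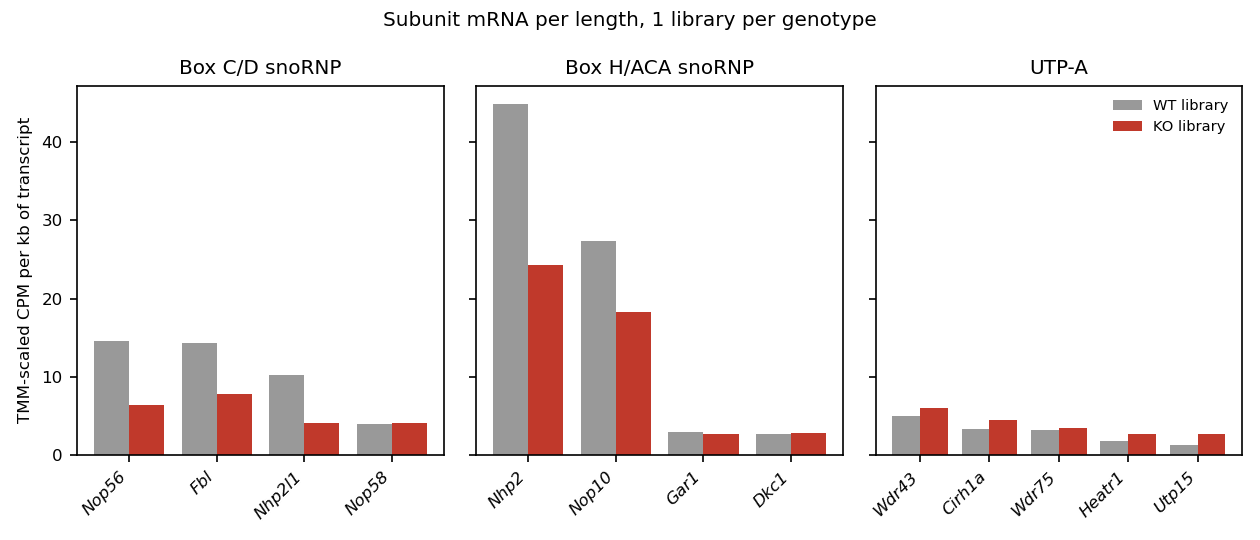
mRNA of the tested core proteins of box C/D and box H/ACA snoRNPs and of the UTP-A complex, in TMM-scaled CPM per kb of the longest protein-coding transcript (y axis), with 1 bar for the WT library and 1 for the KO library and no error bars, since there was 1 library per genotype. *Nop56*, *Fbl*, *Nhp2l1*, *Nhp2* and *Nop10* had the taller bar in the WT library, and *Nop58*, *Dkc1* and the 5 UTP-A genes in the KO library, an order that turns with total-count scaling for the latter except *Utp15*.

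Several groups of genes outside the pathway moved in the same direction as the snoRNP genes. Of 14 genes of the cell cycle and DNA replication, 13 were below 0, with a median of −0.76, from −1.75 for *Cdk1* to 0.15 for *Ccne1*. Their summed level was 258 CPM (KO) and 420 CPM (WT). Macrophage markers (6 of 6 below 0, median −0.91, 122 and 176 CPM in sum), stellate cell markers (5 of 6 below 0, median −0.60, 37.4 and 56.5 CPM) and endothelial markers (5 of 6 below 0, median −0.44, 73.4 and 89.1 CPM) were also lower, while the 6 hepatocyte markers had a median of 0.09 and made up 54134.5 and 53273.5 CPM, in keeping with the tissue label. Cholangiocyte markers had a median of 0.40 (4 of 5 above 0, 164 and 125 CPM) and neutrophil markers of 0.15 (3 of 4 tested, *Ly6g* at 0 counts). Erythroid markers had a median of −0.58 with 3 of 4 below 0. Among them *Alas2* stood at 1.22, and their sum was 76.4 (KO) and 64.5 (WT) CPM. Of 5 lymphocyte markers only *Cd79a* had enough counts, and it stood at 2.02 with 12 KO and 4 WT counts. *Cd3e* had 0 and 3 counts. The part of proliferation or of these cell types in the lower snoRNP mRNAs was not tested.

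The processome assembles on the precursor rRNA while it is being made. UTP-A, the complex that binds the 5′ end of the precursor and is tied to its transcription, was the only complex of the processome with every member above 0 after TMM, with a median of 0.43 over 5 genes, or −0.17 when scaled by total counts. *Utp15* (chr13:98246845-98262992, minus strand) had 115 KO and 82 WT counts, or 10.7 and 5.06 CPM. Its log2 fold change of 1.07 (0.66 to 1.51, with an adjusted p of 1.1e-06 in the exact binomial test) was the highest in the pathway, and under total counts it was 0.48. *Heatr1*, which encodes a large scaffold protein, had 192 KO and 192 WT counts and stood at 0.59 (0.30 to 0.89), or −0.01 under total counts. *Cirh1a*, *Wdr43* and *Wdr75* gave 0.43, 0.27 and 0.15 and did not pass the test. Of the 5 genes, 2 were higher by 1.5-fold and none was lower, beside 14.6% and 15.0% of all genes.

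UTP-B, the complex that joins next, was split. *Utp6* (chr11:79932321-79962390, minus strand) had 95 KO and 335 WT counts, or 8.83 and 20.7 CPM, and stood at −1.22 (−1.57 to −0.89, with an adjusted p of 8.7e-14 in the exact binomial test). *Utp18*, with 42 and 100 counts, was lower as well, at −0.65 (−1.22 to −0.13). *Pwp2*, a WD-repeat protein of the same complex, had 142 and 120 counts and was higher, at 0.83 (0.47 to 1.20). *Tbl3* gave −0.36, but 37.3% of its exons overlap *Noxo1* on the other strand, and *Wdr36* and *Wdr3* gave 0.11 and 0.15. The intervals of *Utp6* and *Pwp2* lie far apart, so members of 1 complex went in opposite directions in these libraries, although under total counts *Pwp2* stands at 0.23 and no longer passes.

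The other modules of the processome lay near 0. In UTP-C with casein kinase 2 (CK2) the median was 0.02. *Csnk2b*, the regulatory subunit of CK2, had 753 and 1276 counts and a level per length of 72.9 (KO) and 81.9 (WT) CPM per kb, the highest of the 70 factors on this scale but not in the deposited FPKM. Its log2 fold change was −0.17 (−0.30 to −0.04). The catalytic subunits gave 0.02 for *Csnk2a1* and 0.60 (0.28 to 0.92) for *Csnk2a2*, which was higher by 1.5-fold after TMM and had 166 and 165 counts, a value of −0.00 under total counts. Over the transcript of *Csnk2a1*, 55.5% of the words occur in other genes. *Mphosph10*, *Imp4* and *Imp3*, the MPP10 complex, ranged from −0.21 to 0.12.

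Of the 9 remaining processome and pre-40S factors, only *Utp14a* was past 1.5-fold. It encodes a protein that acts with an RNA helicase late in the processome, and it had 306 KO and 283 WT counts and a log2 fold change of 0.70 (0.47 to 0.94; 0.10 under total counts). Its retrocopy *Utp14b*, with 37 and 73 counts, gave −0.38 with an interval that includes 0, and overlaps *Acsl3* on the same strand. *Nat10*, the rRNA acetyltransferase, gave −0.55 (−0.82 to −0.29). *Rcl1* and *Emg1*, the latter an rRNA methyltransferase, were close to the bulk of the genes at 0.16 and 0.10. So were *Fcf1*, an endonuclease, at 0.12 and *Ak6* at −0.03. However, 36.6% of the words of *Fcf1* occur in other genes, and 59.1% of the exons of *Ak6* overlap *Taf9*. Over all 28 processome and pre-40S genes, 18 were above 0 and 10 below, with a median of 0.11 and of −0.49 under total counts. At 2-fold 1 was lower and 1 higher, beside 8.32% and 7.97% of all genes. At 1.5-fold 2 were lower (7.14%) and 5 higher (17.9%), beside 15.0% and 14.6% of all genes.

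**Figure D3:**
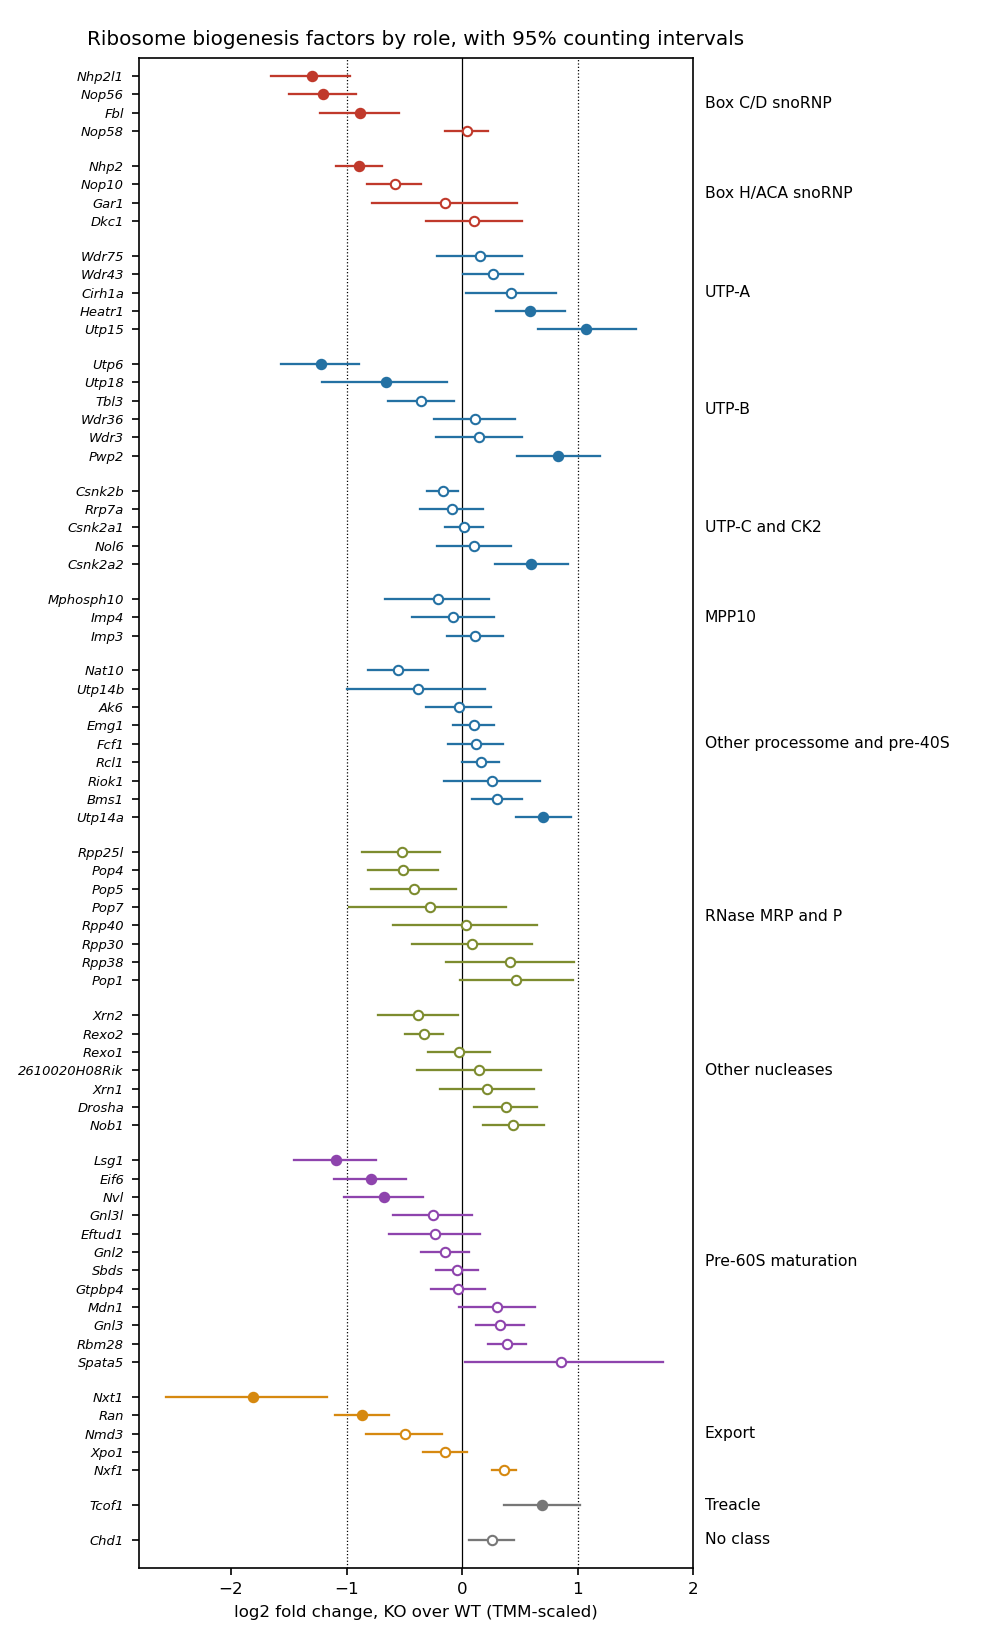
Log2 fold change, KO over WT after TMM scaling (x axis), of each of the 70 tested factors (rows), grouped by role. Lines are 95% intervals that cover counting error only, filled points passed 1.5-fold with an adjusted p-value under 0.05, and dotted lines mark 2-fold. Filled points lie to the left among the snoRNP, pre-60S and export genes and on both sides in UTP-B. They lie to the right in UTP-A and for *Csnk2a2*, *Utp14a* and *Tcof1* in other groups. Total-count scaling moves every point to the left by about 0.60.

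None of the 15 tested nucleases and nuclease subunits was past 1.5-fold in either direction, beside 15.0% and 14.6% of all genes. RNase MRP, which cuts the precursor between the parts for the small and the large subunit, shares most of its proteins with RNase P, which trims tRNA. Its 8 tested subunits had a median of −0.12. *Rpp25l* had 108 KO and 234 WT counts and the lowest value, −0.52 (−0.87 to −0.19), and *Pop4*, with 136 and 292 counts, gave −0.51 (−0.81 to −0.21). *Pop1*, the largest subunit, had 70 and 76 counts and the highest value, 0.47 (−0.02 to 0.96). The 4 subunits below 0 were *Rpp25l*, *Pop4*, *Pop5* and *Pop7*, and the 4 above 0 were *Rpp40*, *Rpp30*, *Rpp38* and *Pop1*. Few counts stood behind them, and the interval of each of the 8 reached past a 1.5-fold change.

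The other 7 nucleases had a median of 0.15, and of −0.45 under total counts. *Nob1*, which makes the last cut at the end of the small subunit rRNA, had 234 and 259 counts. Its log2 fold change was 0.44 (0.18 to 0.71). *Xrn2*, the nuclear exonuclease that trims 5′ ends, had 107 and 210 counts and gave −0.38 (−0.73 to −0.04), while its cytoplasmic relative *Xrn1* gave 0.22. *Rexo2*, with 451 and 853 counts, had the highest level of the nucleases per length, also in the deposited FPKM, with 38.9 (KO) and 48.8 (WT) CPM per kb, and gave −0.33. *Drosha*, which cuts precursors of microRNAs and has been linked to rRNA maturation, had 212 and 246 counts and a log2 fold change of 0.38 (0.11 to 0.65). The remaining 2, *Rexo1* and *2610020H08Rik*, lay at −0.02 and 0.15.

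Among the 12 factors of the large subunit, 3 (25%) were lower by 1.5-fold and none was higher, beside 15.0% and 14.6% of all genes. *Lsg1*, the GTPase that strips the export adaptor from new large subunits in the cytoplasm, had 89 KO and 286 WT counts (8.28 and 17.6 CPM) and a log2 fold change of −1.09 (−1.45 to −0.74, with an adjusted p of 5.0e-10 in the exact binomial test). *Eif6*, whose protein keeps the new large subunit from joining the small one, had 121 and 316 counts and gave −0.79 (−1.11 to −0.49). *Nvl*, a nuclear AAA ATPase, gave −0.67 (−1.02 to −0.34). *Sbds* and *Eftud1*, which together remove Eif6, gave −0.05 (−0.23 to 0.14) and −0.23 (−0.63 to 0.16), and the interval of *Sbds* lies above that of *Eif6*.

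The nucleolar GTPases of this group differed less. *Gnl3*, which encodes nucleostemin, had 340 and 408 counts and gave 0.33 (0.12 to 0.54), its relative *Gnl3l* gave −0.25 (−0.60 to 0.09), and *Gnl2* and *Gtpbp4* gave −0.14 and −0.03. *Rbm28* had 569 and 656 counts, and its log2 fold change was 0.39 (0.22 to 0.55), and *Mdn1*, the giant AAA ATPase, gave 0.30. *Spata5*, another AAA ATPase, had the highest value of the group, 0.86, but with 28 and 23 counts its interval ran from 0.03 to 1.74 and it did not pass (adjusted p of 0.064, exact binomial test). The median of the 12 genes was −0.10, with 8 below 0.

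*Nxt1* changed most in the whole pathway. Its protein pairs with Nxf1 to carry mRNA through the nuclear pore (*Nxf1* and *Nxt1* are listed in the pathway as export factors), and it had 22 KO and 118 WT counts, or 2.05 and 7.28 CPM. The log2 fold change was −1.81 (−2.56 to −1.17, with an adjusted p of 5.4e-09 in the exact binomial test), 3.51-fold lower. *Nxf1*, with 1409 and 1650 counts, stood at 0.36 (0.26 to 0.47) after TMM and at −0.24 under total counts. *Ran*, the GTPase that gives nuclear transport its direction, had 214 and 587 counts and was lower, at −0.86 (−1.10 to −0.64). Of its words, 15.3% occur in other genes. *Nmd3*, the adaptor that Lsg1 releases, gave −0.50 (−0.83 to −0.17), and *Xpo1*, the exportin that binds it, gave −0.15 (−0.34 to 0.04). Of the 5 tested export genes 4 were below 0, the median was −0.50, and 2 were lower by 1.5-fold and none was higher, beside 15.0% and 14.6% of all genes.

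*Tcof1* had 163 KO and 152 WT counts. Treacle recruits RNA polymerase I factors to rRNA genes, and its mRNA had a log2 fold change of 0.69 (0.37 to 1.02), or 0.09 under total counts. The row named *Chd1*, with 390 and 492 counts and a value of 0.26, is placed over both *Chd1* and *Riok2* in the authors' table and was assigned to the pathway through RIO kinase 2, so its counts cannot be read as those of 1 gene.

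Genes of ribosome biogenesis that the pathway does not list were taken from lists of textbook factors. Of 109 such genes 108 were tested, 64 above 0 and 44 below, with a median of 0.08. At 1.5-fold 12 were higher (11.1%) and 4 lower (3.70%), both below the 14.6% and 15.0% of all genes. The RNA polymerase I machinery, 16 genes, had a median of 0.46 (−0.14 under total counts) with 13 above 0, and 5 of them were higher by 1.5-fold and none lower, which is the direction of *Tcof1* and of UTP-A. *Taf1b* was the highest of these at 0.73 and *Taf1d* the lowest of those with at least 100 counts, at −0.50. Other small subunit factors had a median of 0.12 (28 genes, from −1.25 for *Tsr1* to 0.98 for *Rrp12*), other large subunit factors of −0.04 (38 genes, from −0.97 for *Rrp15* to 1.02 for *Ppan*), the RNA exosome of 0.00 (13 genes, from −0.60 for *C1d* to 0.61 for *Exosc2*) and further nucleolar proteins of −0.17 (13 genes, with *Npm3* lowest at −1.15).

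The proteins of the ribosome itself and of the spliceosome, taken from the same annotation, give another setting for the snoRNP values. The 126 tested genes of the KEGG ribosome had a median of −0.26, with 93 below 0, 33 lower by 1.5-fold (26.2%) and 4 higher (3.17%), beside 15.0% and 14.6% of all genes, and their summed level was 7763 CPM (KO) and 9720.2 CPM (WT). The 123 tested genes of the spliceosome had a median of −0.11, with 73 below 0, 24 lower by 1.5-fold (19.5%) and 10 higher (8.13%). The summed level of the spliceosome genes was 4081 CPM (KO) and 3989 CPM (WT). The snoRNP median of −0.73, over 8 genes, was lower than either of these medians, and the pathway's median of −0.00 was higher than both. These sets differ in median coding length, with 486 bases (ribosome), 1164 (spliceosome), 837 (snoRNP) and 1716 (pathway). The part of length in these medians was not tested.

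**Figure D4:**
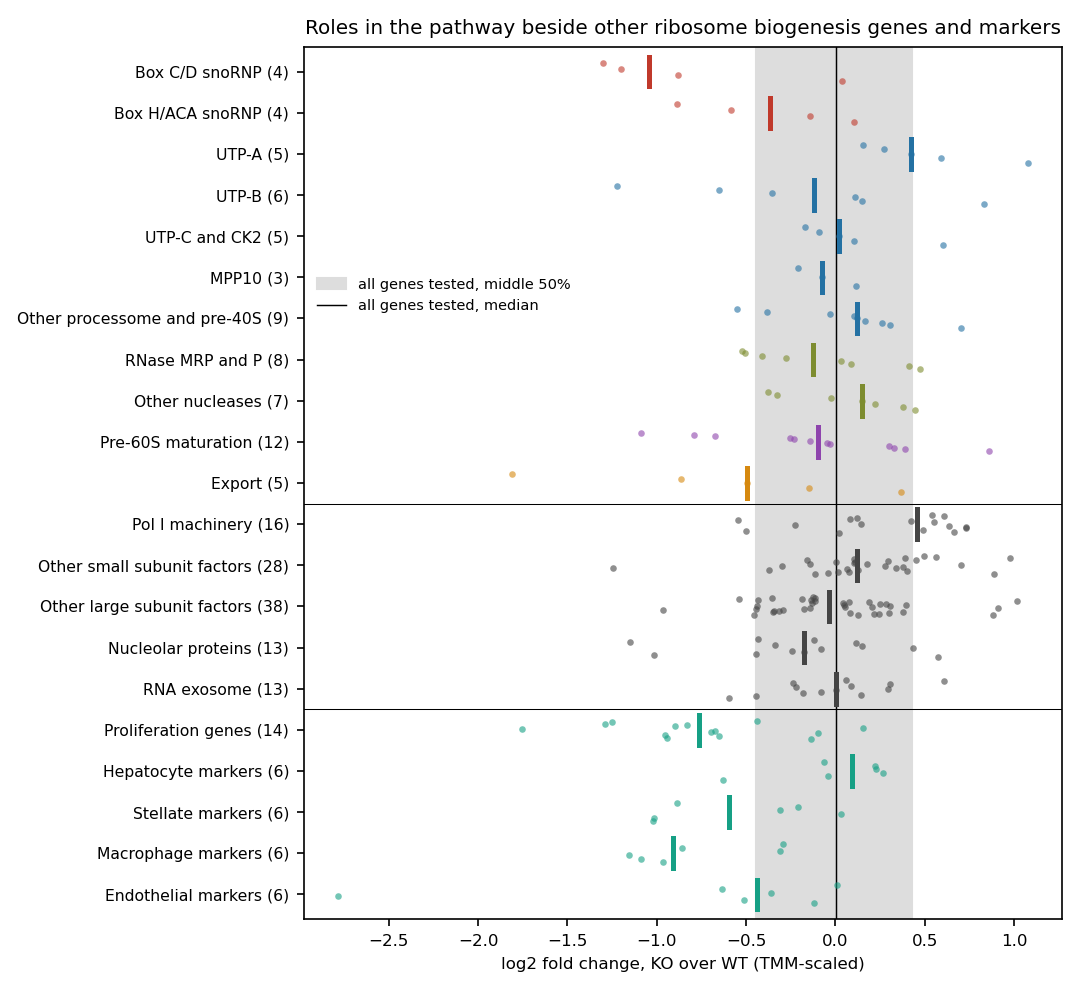
Log2 fold change, KO over WT after TMM scaling (x axis), of the tested genes of each role in the pathway (top), of ribosome biogenesis genes outside it (middle) and of proliferation genes and cell type markers (bottom), with the number of genes in brackets. Points are genes, thick bars are medians, and the grey band is the middle 50% of all genes tested. Box C/D genes (−1.04), export genes (−0.50) and proliferation genes (−0.76) had medians left of the band. So did macrophage markers (−0.91) and stellate markers (−0.60), and endothelial markers (−0.44) had theirs at the band's left edge. UTP-A (0.43) and the RNA polymerase I machinery (0.46) had medians at its right edge. These last 2 medians fall below 0 under total-count scaling.

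The factors also differed by length. Protein-coding genes tested were put into 5 bins of coding length. In the shortest bin, up to 753 bases, all genes had a median of −0.19, 20.2% were lower by 1.5-fold and 8.26% higher. In the longest, from 2496 bases, the median was 0.17, with 10.0% lower and 19.6% higher. The 16 factors in the shortest bin had a median of −0.46, and 5 of them (*Nxt1*, *Nhp2l1*, *Nhp2*, *Ran* and *Eif6*) were lower by 1.5-fold and none higher. The 19 factors in the longest bin had a median of 0.22, with 1 lower and 3 higher. *Nop56*, *Utp6*, *Lsg1* and *Utp18*, which were lower too, fell into the fourth bin, from 1632 to 2493 bases. There all genes had a median of 0.07, with 13.03% lower and 17.18% higher. The 18 factors in that bin had a median of −0.09, with 4 lower and 1 higher (*Utp14a*). Spearman's rho between coding length and log2 fold change was 0.44 over the 70 factors and 0.18 over 12559 protein-coding genes. Both values are across genes that share the same pair of libraries and describe these libraries only. The snoRNP genes had a median coding length of 837 bases and the processome genes of 1911 bases, so length and role moved together, and the part of length in the lower snoRNP values was not tested.

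**Figure D5:**
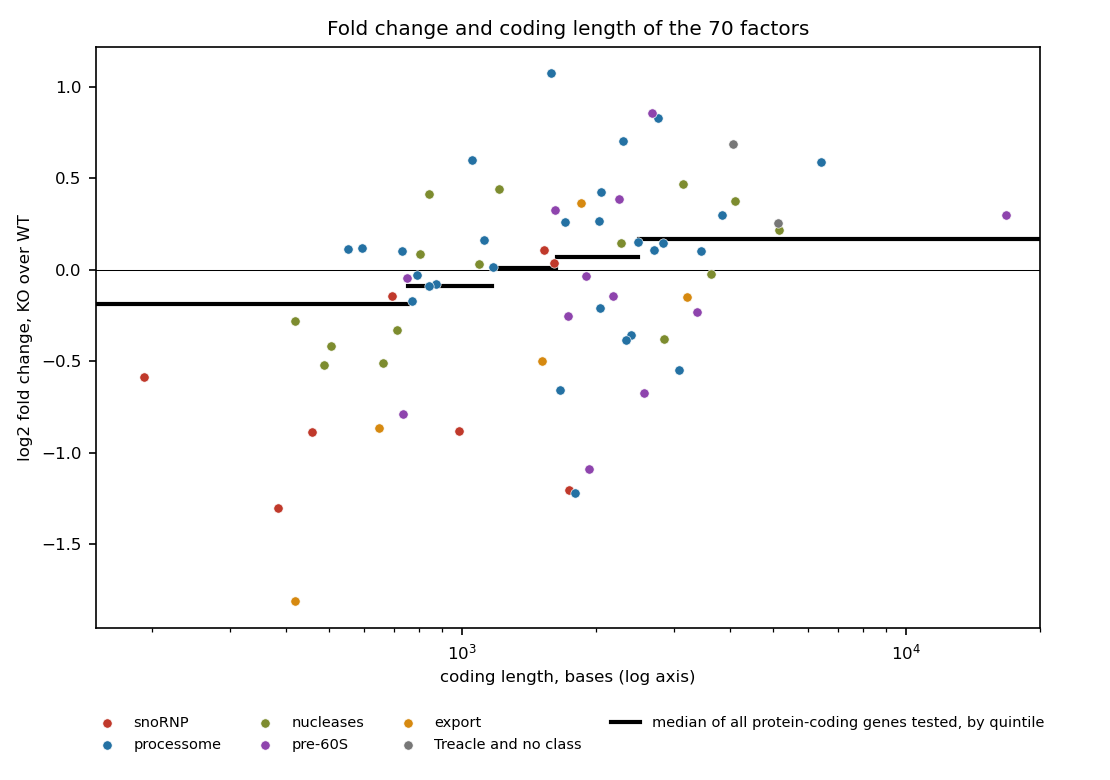
Log2 fold change, KO over WT after TMM scaling (y axis), against coding length in bases on a log axis (x axis), with 1 point per tested factor coloured by role. Black bars are the medians of all protein-coding genes tested in 5 bins of coding length, and rise from −0.19 to 0.17. Of the snoRNP and export genes in the 2 shortest bins, only *Gar1* lies above the bar of its bin, and the short processome genes *Imp3*, *Fcf1* and *Emg1* lie above it too.

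MicroRNAs lower the mRNAs that carry a match to their seed, bases 2 to 8. The mature miR-182-5p of the mouse, from RefSeq (GRCm38.p6, chr6:30165962-30165986, minus strand), is shown with its seed in capitals. Below it stand 4 sites of 8 bases found in the 3′ UTRs of the factors and the site of *Utp6*, as examples of a match by sequence. Capitals in the sites mark the match, TTGCCAAA for 8 bases or TTGCCAA for 7, read on the strand of the mRNA from the longest annotated 3′ UTR (GENCODE M21, GRCm38).
miR-182-5p: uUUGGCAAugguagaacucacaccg
Utp15: ttaaatgaattTTGCCAAAtatt
Pop5: gaaatccacaaTTGCCAAAcctgccaaact
Rrp7a: actgcaggagcTTGCCAAAtagagagcccc
Tbl3: tggtattggccTTGCCAAAggtctaggtcc
Utp6: aagaacaaaatTTGCCAAtttgctctttc

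The site of *Utp15* begins at base 2273 of a 3′ UTR of 2284 bases, and that of *Utp6* at base 1646 of 2002. *Utp15*, the only factor higher by 2-fold, and *Utp6*, lower by 2-fold, thus both carry a match. The other genes shown with a match of 8 bases had log2 fold changes of −0.41 (*Pop5*), −0.09 (*Rrp7a*) and −0.36 (*Tbl3*). Counting shorter matches too (TTGCCAA, or TGCCAAA), 14 of the 70 tested factors had a site, with a median of −0.12, 2 higher and 2 lower by 1.5-fold (14.3% each, near the 14.6% and 15.0% of all genes), and the 56 without a site had a median of 0.09. An 8-base match occurred in 7.14% of the tested factors and in 5.50% of 12541 genes tested that have a 3′ UTR, and those 690 genes had a median of 0.00. No site of 7 or 8 bases was found in 80% of the tested factors and in 78.3% of the 12541 genes. A match describes the sequence and was not tested as a site of binding.

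*Myc* had 37 KO and 103 WT counts and a log2 fold change of −0.88 (−1.47 to −0.33, with an adjusted p of 0.0031 in the exact binomial test). Among 11 genes of the MYC network, *Mlx* was the lowest of those with at least 100 counts, at −1.63, and *Mga* the highest, at 1.99, and the median was 0.36. The E-box of MYC, CACGTG, which reads the same on both strands, was sought in RefSeq promoters (GRCm38.p6), 250 bases before to 50 after each gene's start. Of the 77 factors 63 had a promoter in that table. The motif was held by 14 of these, 22.2%, against 2187 of all 27025 genes with a promoter, 8.09%. Among tested factors with a promoter it was 12 of 57, 21.1%, against 11.5% of all genes tested that had one. The promoters of 2 lower factors, *Ran* and *Utp18*, and of 2 UTP-A genes, *Cirh1a* and *Wdr43*, are shown with the E-box in capitals because the same motif stands in factors that were called lower and in factors that were not called. *Cirh1a* (0.43) and *Wdr43* (0.27) did not pass the test and lie at −0.17 and −0.33 under total counts.
Ran (chr5:129019906-129020205, plus strand): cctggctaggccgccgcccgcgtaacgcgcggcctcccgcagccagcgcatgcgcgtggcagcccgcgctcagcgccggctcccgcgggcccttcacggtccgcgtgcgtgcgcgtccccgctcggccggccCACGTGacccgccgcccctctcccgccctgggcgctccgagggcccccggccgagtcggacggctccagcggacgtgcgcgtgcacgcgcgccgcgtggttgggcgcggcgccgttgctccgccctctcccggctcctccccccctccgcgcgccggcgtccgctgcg
Utp18 (chr11:93885717-93886016, minus strand): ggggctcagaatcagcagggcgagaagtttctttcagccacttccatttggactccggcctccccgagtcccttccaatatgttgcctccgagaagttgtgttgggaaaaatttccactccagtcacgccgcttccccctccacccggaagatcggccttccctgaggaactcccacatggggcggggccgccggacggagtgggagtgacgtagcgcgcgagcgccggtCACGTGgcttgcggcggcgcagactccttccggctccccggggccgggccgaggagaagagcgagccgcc
Cirh1a (chr8:106893390-106893689, plus strand): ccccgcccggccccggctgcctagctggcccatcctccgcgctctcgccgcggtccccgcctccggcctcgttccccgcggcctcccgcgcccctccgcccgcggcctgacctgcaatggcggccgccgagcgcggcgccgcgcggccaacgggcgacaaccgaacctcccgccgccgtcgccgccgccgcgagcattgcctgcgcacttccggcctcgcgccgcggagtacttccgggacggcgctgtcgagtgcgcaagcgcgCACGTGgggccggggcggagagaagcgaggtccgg
Wdr43 (chr17:71615965-71616264, plus strand): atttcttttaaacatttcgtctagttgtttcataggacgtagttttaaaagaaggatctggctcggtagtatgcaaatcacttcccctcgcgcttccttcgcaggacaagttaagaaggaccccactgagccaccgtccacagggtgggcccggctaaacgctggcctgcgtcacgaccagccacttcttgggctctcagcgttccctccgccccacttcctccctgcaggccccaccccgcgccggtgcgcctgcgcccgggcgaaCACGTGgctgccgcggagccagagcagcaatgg

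The motif begins at base −118 from the start of *Ran* and at −20 from that of *Utp18*, and at 15 and 17 bases past the start of *Cirh1a* and *Wdr43*. The 12 tested factors with an E-box had a median log2 fold change of −0.21, with 8 below 0, 2 lower by 1.5-fold (*Ran* and *Utp18*), 16.7% beside 15.0% of all genes, and none higher. The 45 tested factors whose promoters lacked it had a median of 0.04, with 6 lower (13.3%) and 5 higher (11.1%). No promoter of a snoRNP gene in the table held these letters, including those of *Nop56*, *Nhp2l1*, *Nhp2*, *Nop10* and *Nop58*, and no promoter of *Fbl* or *Utp6* was found there. A missing match says only that these letters are not in the window.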

How the data were processed

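Poly(A) RNA of 1 liver library per genotype was sequenced. The authors deposited raw read counts per gene and FPKM computed from them. The submitters' processing notes name HISAT2 2.0.4, StringTie, edgeR and the build hg38, a human build, while the gene identifiers are those of the mouse, and the coordinates of 58 of the 77 factors are the same in GENCODE M21 (GRCm38), which gave strand, lengths and 3′ UTRs. The deposited FPKM rest on lengths that differ from the annotated exon lengths by 0.275 to 3.72 times among the factors, so levels between genes were set per kb of transcript.

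Counts were scaled by TMM in edgeR 4.0.16 (R 4.3.3) with a prior count of 0.5, giving factors of 0.812 (KO) and 1.23 (WT). The two-sided exact binomial test, Benjamini-Hochberg adjustment and Clopper-Pearson intervals were computed with scipy 1.17.1, numpy 2.4.6 and pandas 2.3.3 under Python 3.11.15, and figures were drawn with matplotlib 3.10.9. In simulated counts, 200 of 200 genes changed by 2 on the log2 scale were recovered among 13379 tested, with 3 false calls. The simulation held counting error only, with no spread between animals and no difference in the mitochondrial share. Its changed genes had at least 100 counts, so it checks the calculation and gives no error rate for these libraries. DESeq2 1.42.0 gave other size factors. Shared sequence is the share of a transcript's 51-base words found in other genes.

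The factors, roles and lists were chosen with earlier results of these data known, and 5 factors received their role (or none) after the counts were seen. In each role the factor with the highest FPKM in the WT library, the lowest and highest log2 fold changes with at least 100 counts and those called at 2-fold were named by rule. Other factors were named after their values were seen, to account for each role. A sequence match in 1 further factor is not reported here.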

Additional observations from a re-analysis of the deposited data

How the results depend on the processing

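With 1 library per genotype, no replicate could be left out, no spread between animals could be estimated, and no paired analysis was possible because no replicate numbers are shared. The depth limits factors under about 100 counts, whose intervals span more than 1.5-fold. The 5 lower and 1 higher factors at 2-fold and the pathway's median were the same, within the limits set, with DESeq2 size factors, upper-quartile scaling, a minimum of 1 or 50 counts, a prior count of 5 and without the 5 factors that overlap another gene on the same strand.

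Scaled by total counts, 17 of 70 factors were lower and 0 higher at 2-fold, beside 3397 lower and 471 higher of 13561 genes. The median was −0.60, like that of all genes (−0.60). The authors' FPKM with a pseudocount of 0.1, which have no test, gave 16 and 0, beside 2934 and 405 of all genes. Their median was −0.58 (all genes −0.54). Total counts without the mitochondrial genes gave 5 lower and 0 higher, beside 1302 and 954 of all genes. The median was then −0.09, and *Utp15* stood at 0.99. An assumed biological coefficient of variation of 0.2 left 1 lower and 0 higher, beside 444 and 488 of all genes. With 0.4 it was 0 and 0, beside 58 and 59. Without the 8 factors that share sequence, overlap exons or span several genes, 3 of 62 were lower and 1 higher. The 8 factors left out included the box C/D genes *Nop56* and *Nhp2l1*, both lower by 2-fold. Of all 13561 genes, 1128 were lower and 1081 higher. This alternative was added after seeing the data.

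Of the factors named by rule, those above 0 after TMM that fell below 0 under total counts were *Chd1* (−0.34), *Csnk2a2* (−0.0005), *Dkc1* (−0.49), *Gnl3* (−0.27), *Imp3* (−0.48), *Nob1* (−0.16), *Nop58* (−0.56), *Nxf1* (−0.24), *Pop1* (−0.13), *Rbm28* (−0.21), *Rcl1* (−0.44), *Wdr43* (−0.33) and *Wdr75* (−0.45). Of all tested factors, only *Utp15*, *Pwp2*, *Utp14a*, *Tcof1* and *Spata5* stayed above 0 under total counts. In FPKM the factors named by rule that fell below 0 were *Chd1* (−0.33), *Csnk2a2* (−0.0005), *Dkc1* (−0.46), *Gnl3* (−0.27), *Imp3* (−0.48), *Nob1* (−0.15), *Nop58* (−0.54), *Nxf1* (−0.23), *Pop1* (−0.12), *Rbm28* (−0.21), *Rcl1* (−0.44), *Wdr43* (−0.33) and *Wdr75* (−0.42). Without the mitochondrial genes in the total, *Nop58* was at −0.048. These shifts follow from the scaling itself, which moves all genes together.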
